A study of Mus musculus with 6 samples.

Results

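Genes for the synthesis and sulfation of glycosaminoglycans were examined in cells titled MSC, sorted by a reporter of the Prx1 lineage, from Zeb1Prx1 and WT mice. In every library the summed macrophage markers exceeded the summed stromal markers, as given below. The genes were taken by symbol from a list of 42 enzymes and transporters, and all 42 were found among the 54532 genes of the deposited table. Zeb1Prx1 mice carried Prx1-Cre, a ROSA-YFP reporter and Zeb1fl/fl alleles, which Cre recombines. WT mice carried the same Cre and reporter with Zeb1wt/wt alleles, so that both genotypes expressed Cre. Prx1-Cre is active in early limb mesenchyme and its descendants, and Zeb1 encodes a zinc-finger and homeodomain repressor. Compact bone of femurs and tibias was chipped and treated with collagenase, the chips were put in culture, and fluorescent cells were then sorted, without further treatment. Each genotype had 3 libraries. The labels give neither the age of the mice nor whether replicates came from separate animals, and p-values therefore describe the spread among these 6 libraries, which may be technical. The comparison belongs to a study of how Zeb1 acts in the differentiation of chondrocytes and osteoblasts.

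Glycosaminoglycans are long, negatively charged sugar chains. Chondroitin, dermatan and heparan chains are built in the Golgi on a short linkage region attached to serines of a core protein, and hyaluronan is spun out at the plasma membrane without a core protein. Sulfotransferases then add sulfate from the donor PAPS, which is made in the cytosol from sulfate taken up by transporters. In cartilage, sulfated chondroitin on aggrecan holds the water that lets the tissue bear load. Heparan chains bind growth factors, FGFs and their receptors included. Inherited loss of the sulfate transporter Slc26a2, of Papss2 or of Ext1 and Ext2 disturbs the skeleton.

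Fragments recovered from the deposited values summed to 15702185 to 18354894 in Zeb1Prx1 and 14724357 to 17547064 in WT libraries. Zeb1 checks the labels, and had 1.92, 1.59 and 2.84 FPKM (fragments scaled by the gene's length and the library's size) in Zeb1Prx1 replicates 1, 2 and 3 against 6.61, 10.3 and 7.12 FPKM in WT replicates 1, 2 and 3. All 12 stromal markers, Prrx1 among them, reached 1 FPKM in at least 3 libraries, as did all 15 macrophage markers. The stromal markers summed to 5534, 3323 and 6087 FPKM in Zeb1Prx1 and 2492, 3660 and 3451 FPKM in WT replicates. The macrophage markers summed to 11096, 22906 and 13251 FPKM in Zeb1Prx1 and 13442, 16455 and 15381 FPKM in WT replicates. In every library this was above the stromal sum. Of 15 chondrocyte markers 7 reached that level, with sums of 652, 201 and 2728 FPKM in Zeb1Prx1 and 34.5, 234 and 181 FPKM in WT. For osteoblast, epithelial and endothelial markers these numbers were 7 of 8, 1 of 6 and 0 of 5, and no marker of these 6 lists was at 0 in all libraries. Zeb1Prx1 replicate 2 stood apart. Against the mean of replicates 1 and 3, the median difference of log2(FPKM + 1) in it was 0.43 for genes under 2000 bases and -0.24 for genes of at least 5000 bases. The 42 enzyme genes were long, with a median of 5036.5 bases against 3989 for all tested genes.

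Upstream sequences are shown because Zeb1 is known to bind the E-box CACCTG. RefSeq start sites on GRCm38.p6, the assembly behind mm10, were found for 32 of the 42 genes, in 40 windows, 8 genes having 2 start sites. The other 10 were Csgalnact1, Chsy3, Ext1, Extl3, Has2, Has3, Ndst1, Slc26a2, Sulf1 and Xylt1. CACCTG on either strand (CAGGTG is its reverse complement) lay in the 250 bases upstream of 3 of the 40 windows (7.5%), against 17.22% of all 32851 windows of that length. These 3 belonged to Sulf2, Papss1 and Csgalnact2, whose genotypes overlapped, and in Papss1 and Csgalnact2 to the downstream of 2 start sites. The match is shown in capitals with up to 20 bases on each side, 5′ to 3′ along the gene.
Sulf2 (chr2:166155687-166155732, minus strand): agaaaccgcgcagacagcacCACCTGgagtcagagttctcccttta
Papss1 (chr3:131565891-131565936, plus strand): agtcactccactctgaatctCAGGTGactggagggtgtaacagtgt
Csgalnact2 (chr6:118139043-118139080, minus strand): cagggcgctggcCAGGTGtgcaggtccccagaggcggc

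The 250 upstream bases follow for genes chosen among those with a window whose genotypes did not overlap: Xylt2, Ust and Ndst2, whose Zeb1Prx1 values all lay below their WT values, and Extl1, whose values all lay above. None of the 4 holds CACCTG. The Extl1 window lies upstream of its RefSeq start but inside the gene's span in the deposited table (chr4:134356372-134383850, minus strand). Bases upstream of the 5′ end of that span are not shown. Capitals mark the GC box GGGCGG or its reverse complement CCGCCC, which does not overlap CACCTG and lies in 24 of the 40 windows (60.0%) against 32.74% of all windows. A match, or its lack, describes these letters only and shows nothing of binding. 
Xylt2 (chr11:94677494-94677743, minus strand): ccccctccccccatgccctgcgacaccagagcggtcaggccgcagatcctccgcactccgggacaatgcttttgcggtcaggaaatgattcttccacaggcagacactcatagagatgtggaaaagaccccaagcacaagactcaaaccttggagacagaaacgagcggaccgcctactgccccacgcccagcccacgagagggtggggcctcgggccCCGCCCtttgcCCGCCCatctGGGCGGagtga
Ust (chr10:8518826-8519075, minus strand): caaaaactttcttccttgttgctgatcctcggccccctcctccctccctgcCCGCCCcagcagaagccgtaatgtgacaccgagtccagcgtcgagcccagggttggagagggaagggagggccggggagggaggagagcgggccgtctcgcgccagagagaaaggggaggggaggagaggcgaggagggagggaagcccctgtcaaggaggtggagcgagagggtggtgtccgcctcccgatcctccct
Ndst2 (chr14:20734563-20734812, minus strand): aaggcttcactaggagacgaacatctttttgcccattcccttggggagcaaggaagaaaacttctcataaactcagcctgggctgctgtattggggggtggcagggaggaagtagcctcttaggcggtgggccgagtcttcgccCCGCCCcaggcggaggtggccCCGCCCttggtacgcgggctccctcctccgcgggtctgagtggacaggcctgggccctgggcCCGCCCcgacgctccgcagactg
Extl1 (chr4:134372548-134372797, minus strand): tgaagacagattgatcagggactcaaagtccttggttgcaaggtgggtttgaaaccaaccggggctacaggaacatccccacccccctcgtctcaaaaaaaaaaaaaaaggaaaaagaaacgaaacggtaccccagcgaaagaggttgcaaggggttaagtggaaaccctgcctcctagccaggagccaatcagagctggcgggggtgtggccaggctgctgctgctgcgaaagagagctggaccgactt

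No glycosaminoglycan gene passed the test, and the differences that separated the genotypes ran in both directions. Lower in each Zeb1Prx1 library were Xylt2, Ust, Chst7, Extl3, Ndst2 and Has1. Higher in each were B3gat3, Chpf, Ext2 and Extl1. Of the 42, 37 reached the filter of at least 1 FPKM in at least 3 libraries, and Chst3, Chst13, Extl1, Has1 and Has3 did not. By limma on log2(FPKM + 1), 0 of the 37 were called at an adjusted p under 0.05, where 0 of 12534 genes (0%) were called, and the smallest adjusted p among the 37 was 0.273. At an unadjusted p under 0.05, 0 of 37 were higher against 8.15% of all tested genes, and 4 of 37 (10.8%) were lower against 6.98%. Voom on the recovered fragments also called 0 and counted the same numbers, 0 higher and 4 lower. The genotypes did not overlap for 8 of the 37 (21.6%), against 24.4% of all tested genes. These shares lay near the background of the whole table.

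Across the 42, the difference of mean log2(FPKM + 1), Zeb1Prx1 minus WT, had a median of 0.12 and was above 0 for 26. All tested genes had a median change of 0.02, and 51.9% were above 0. Scaling every library to the same summed FPKM gave a median of -0.12 for all tested genes and -0.023 for the 42. Scaling by each library's median gene ratio to the geometric mean left these medians at 0.02 and 0.12. The sign of the median for the 42 thus changed with equal sums only. Summed FPKM was 372566 in Zeb1Prx1 replicate 2 and 278987 to 312038 in the others. Equal sums also turned the genes with an unadjusted p under 0.05 by limma from 1022 higher and 875 lower into 612 higher and 1279 lower. In the set, 0 were then higher and 5 lower. The median of the 42 was -0.017 without Zeb1Prx1 replicate 3 and 0.22 without Zeb1Prx1 replicate 2.

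**Figure D1:**
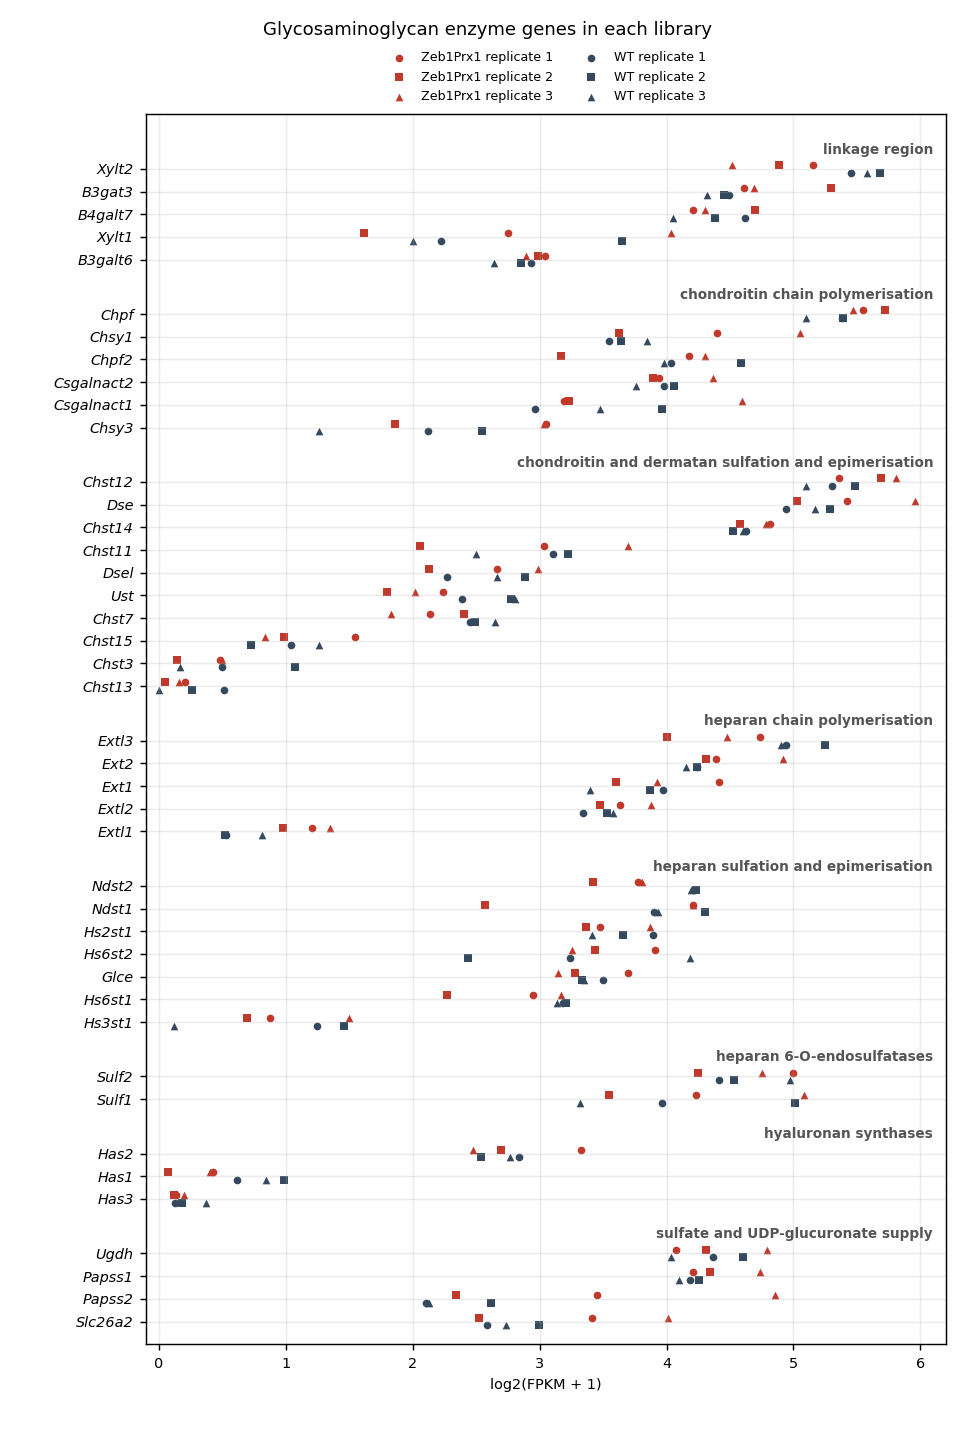
Level of each of the 42 genes in each library, as log2(FPKM + 1) on the horizontal axis, with genes grouped by step on the vertical axis. Red symbols are the 3 Zeb1Prx1 libraries and dark blue symbols the 3 WT libraries; red and blue separate fully for 10 genes, Xylt2 and Ndst2 among them, while Papss2 and Xylt1 are widest in Zeb1Prx1.

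**Figure D2:**
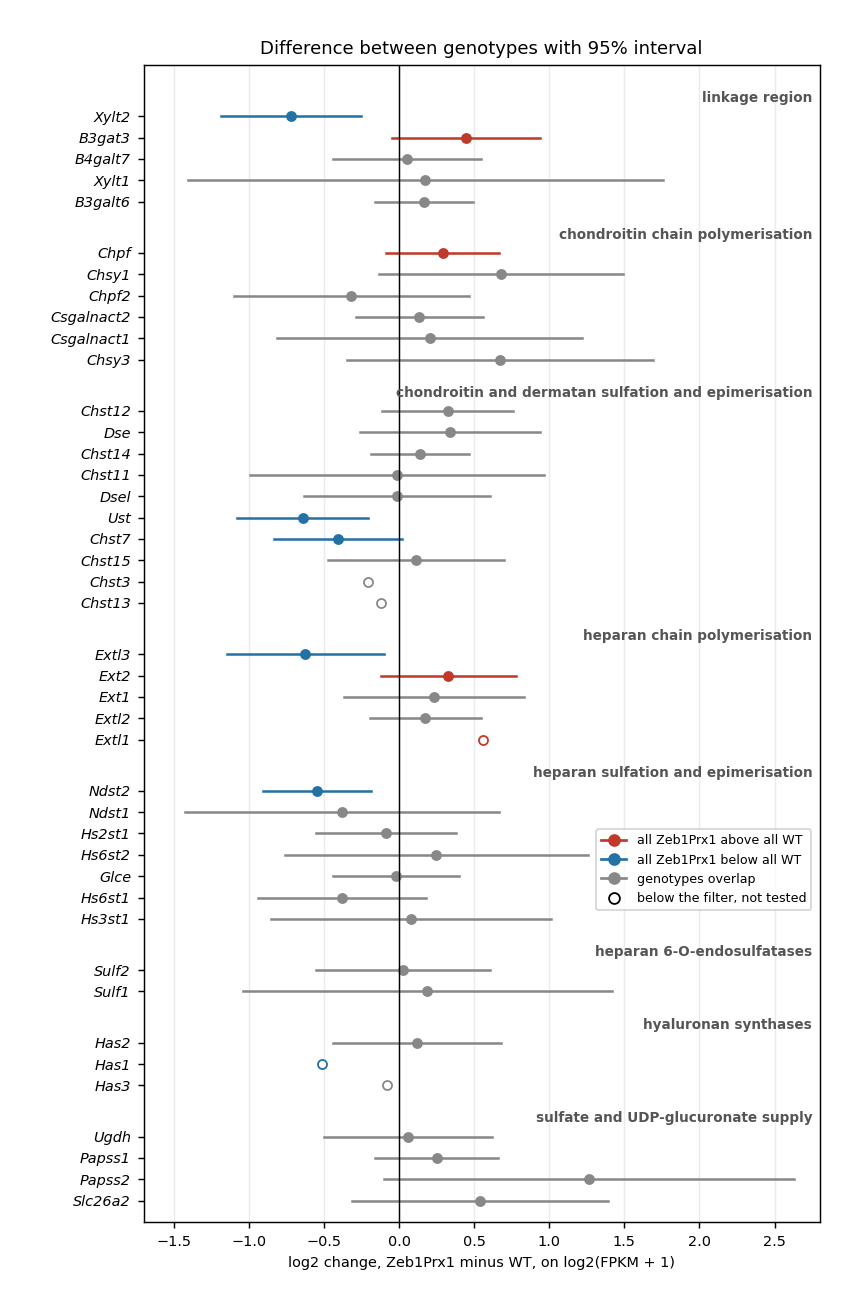
Difference between genotypes for each gene, Zeb1Prx1 minus WT on log2(FPKM + 1), with limma's 95% interval as the bar; open circles are the 5 genes below the filter, which were not tested. The intervals of Xylt2, Ust, Extl3 and Ndst2 lie below 0, and none lies above 0.

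The linkage region begins with xylose, which Xylt1 or Xylt2 transfers to serine. Xylt2 (ENSMUSG00000020868, mm10 chr11:94663851-94677515) had 34.6, 28.5 and 21.9 FPKM in Zeb1Prx1 replicates 1, 2 and 3, against 42.7, 50.4 and 46.8 FPKM in WT replicates 1, 2 and 3. Every Zeb1Prx1 value lay below every WT value. Mean FPKM was 28.3 ± 6.37 in Zeb1Prx1 and 46.7 ± 3.85 in WT (SD, n = 3 each), 0.608-fold, with a log2 change of -0.72 (SE 0.20, 95% interval -1.18 to -0.26; limma adjusted p = 0.273). With library weights, an alternative that gives Zeb1Prx1 replicate 3 the most weight (2.82) and replicate 2 the least (0.226), its change of -0.94 passed (limma adjusted p = 0.0485), where 3.57% of all tested genes were called.

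Xylt1, the other xylosyltransferase, varied widely within both genotypes. It had 5.72, 2.07 and 15.4 FPKM in Zeb1Prx1 replicates against 3.67, 11.5 and 3.02 FPKM in WT replicates, so the genotypes overlapped (log2 change 0.17, SE 0.67). The fold of means was 1.27 with all libraries, 0.641 without Zeb1Prx1 replicate 3 and 2.31 without WT replicate 2. Xylt1 made up 14.2%, 6.77% and 41.3% of the summed FPKM of both xylosyltransferases in Zeb1Prx1 replicates, against 7.91%, 18.6% and 6.05% in WT replicates.

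Of the 3 glycosyltransferases that complete the linkage region, the glucuronosyltransferase B3gat3 was higher in each Zeb1Prx1 library. It had 23.5, 38.3 and 24.9 FPKM in Zeb1Prx1 replicates against 21.5, 20.9 and 18.995 FPKM in WT replicates (log2 change 0.44, SE 0.21; limma adjusted p = 0.355). The highest value was in Zeb1Prx1 replicate 2, and B3gat3 (1601 bases in the table) is one of the 2 genes of the set under 2000 bases; the part of that library's shift toward short genes in this value was not tested. The galactosyltransferases B4galt7 and B3galt6 overlapped between genotypes, at 20.4 ± 3.95 against 19.7 ± 4.04 and 6.87 ± 0.402 against 6.03 ± 0.719 FPKM in Zeb1Prx1 and WT (SD, n = 3 each).

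Chondroitin chains are started by Csgalnact1 and Csgalnact2 and extended by Chsy1 and Chsy3 together with the polymerising factors Chpf and Chpf2. Of these 6 genes, 5 had a difference above 0, with a median of 0.25 (0.087 after rescaling to equal FPKM sums, where Csgalnact2 was at -0.024), and 0 were called. Chpf, the most abundant, had 45.9, 51.8 and 43.3 FPKM in Zeb1Prx1 replicates against 40.8, 40.8 and 33.3 FPKM in WT replicates. The Zeb1Prx1 values were all above the WT values, by a narrow margin (log2 change 0.29, SE 0.16; limma adjusted p = 0.393), and the genotypes overlapped after that rescaling (log2 change 0.12).

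Chsy1, which carries both transferase activities of the chondroitin polymerase, had 20.03, 11.3 and 32.3 FPKM in Zeb1Prx1 replicates against 10.7, 11.5 and 13.4 FPKM in WT replicates. Zeb1Prx1 replicates 1 and 3 were above all WT values and replicate 2 was among them, with a log2 change of 0.68 (SE 0.34; limma adjusted p = 0.374). Chsy3 had 7.28, 2.63 and 7.17 FPKM in Zeb1Prx1 replicates against 3.36, 4.84 and 1.3997 FPKM in WT replicates, with the same placing of replicate 2 (log2 change 0.67, SE 0.43). Without Zeb1Prx1 replicate 2 their changes were 1.05 and 1.06, and neither passed (limma adjusted p = 0.302 and 0.327).

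Csgalnact1 had 8.16, 8.39 and 23.2 FPKM in Zeb1Prx1 replicates against 6.79, 14.6 and 10.2 FPKM in WT replicates; only replicate 3 of Zeb1Prx1 was above all WT values. Its fold of means was 1.26 with all libraries and 0.786 without that replicate. Csgalnact2 and Chpf2 overlapped between genotypes, with log2 changes of 0.13 and -0.32. Of the annotated exon bases of Chpf2, 44.1% are shared with other genes, chiefly Smarcd3 on the opposite strand. Whether fragments of Chpf2 and Smarcd3 were told apart there depends on the strand setting, which was not given.

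Among 10 genes for sulfation and epimerisation of chondroitin and dermatan, Ust and Chst7 were lower in each Zeb1Prx1 library. The 10 had differences above 0 for 4 and below 0 for 6, with a median of -0.013, and 0.20 without Zeb1Prx1 replicate 2. Ust, the uronyl sulfotransferase (ENSMUSG00000047712, mm10 chr10:8204756-8518825), had 3.71, 2.47 and 3.04 FPKM in Zeb1Prx1 replicates against 4.24, 5.85 and 5.997 FPKM in WT replicates. The groups did not overlap, the nearest values being Zeb1Prx1 replicate 1 and WT replicate 1. The means were 3.08 ± 0.622 FPKM in Zeb1Prx1 and 5.36 ± 0.974 FPKM in WT (SD, n = 3 each), 0.574-fold, with a log2 change of -0.64 (SE 0.18; limma adjusted p = 0.275). The X-linked Chst7, which sulfates chondroitin, had 3.38, 4.30 and 2.55 FPKM in Zeb1Prx1 replicates against 4.46, 4.63 and 5.25 FPKM in WT replicates (log2 change -0.41, SE 0.18; limma adjusted p = 0.338).

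The abundant genes of this step overlapped between genotypes. Chst12, a chondroitin sulfotransferase with the highest mean of the step, had 40.1, 50.5 and 55.1 FPKM in Zeb1Prx1 replicates against 38.6, 43.7 and 33.2 FPKM in WT replicates (log2 change 0.32, SE 0.18). Dse, the epimerase that turns chondroitin into dermatan, had 44.9 ± 15.01 FPKM in Zeb1Prx1 and 34.3 ± 4.21 FPKM in WT, with its highest value, 61.2 FPKM, in Zeb1Prx1 replicate 3. The dermatan sulfotransferase Chst14 varied little, at 25.5 ± 2.30 in Zeb1Prx1 and 23.0 ± 0.899 FPKM in WT (SD, n = 3 each).

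Chst11, a sulfotransferase needed for normal growth-plate cartilage in mice, had 7.17, 3.17 and 11.95 FPKM in Zeb1Prx1 replicates against 7.61, 8.33 and 4.65 FPKM in WT replicates. Its Zeb1Prx1 replicates 2 and 3 were the lowest and the highest of the 6 values, and the log2 change was -0.014 (SE 0.41). The epimerase Dsel and the sulfotransferase Chst15 had changes of -0.012 and 0.11, and 17.9% of the exon bases of Chst15 overlap a gene on the opposite strand. Chst3 and Chst13, also chondroitin sulfotransferases, had few fragments. Chst3 had 41, 12 and 41 fragments in Zeb1Prx1 replicates against 49, 110 and 12 in WT replicates. Chst13 had 4, 1 and 3 fragments in Zeb1Prx1 replicates against 13, 5 and 0 in WT replicates, where a count of 0 allows up to 3. The genotypes overlapped for both.

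Heparan chains are started by Extl3, which adds the first N-acetylglucosamine, and extended by the complex of Ext1 and Ext2. Extl3 (ENSMUSG00000021978, mm10 chr14:65052060-65149855), the most abundant gene of the step, had 25.7, 15.02 and 21.3 FPKM in Zeb1Prx1 replicates against 29.7, 37.0 and 28.9 FPKM in WT replicates. It was lower in each Zeb1Prx1 library, with means of 20.7 ± 5.36 FPKM in Zeb1Prx1 and 31.9 ± 4.47 FPKM in WT (SD, n = 3 each), 0.649-fold. The log2 change was -0.62 (SE 0.22; limma adjusted p = 0.298), and -0.42 without Zeb1Prx1 replicate 2.

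Ext2 had 19.9, 18.9 and 29.3 FPKM in Zeb1Prx1 replicates against 17.9, 17.9 and 16.8 FPKM in WT replicates, without overlap (log2 change 0.33, SE 0.19; limma adjusted p = 0.409). With every library at the same summed FPKM its change was 0.17 and the genotypes overlapped. Ext1 overlapped as deposited, at 15.2 ± 4.69 FPKM in Zeb1Prx1 and 12.6 ± 2.72 FPKM in WT, as did Extl2, a related N-acetylhexosaminyltransferase, at 11.7 ± 1.81 and 10.2 ± 0.966 FPKM in Zeb1Prx1 and WT (SD, n = 3 each).

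Extl1, a further member of the exostosin family, was low but separated the genotypes. It had 91, 76 and 102 fragments in Zeb1Prx1 replicates against 35, 29 and 50 in WT replicates, or 1.31, 0.973 and 1.54 FPKM against 0.441, 0.435 and 0.751 FPKM. Every Zeb1Prx1 value was above every WT value, and the fold of mean FPKM was 2.35, though with every library at the same summed FPKM the genotypes overlapped. It was below the filter; without a filter its log2 change was 0.56 (SE 0.18) and did not pass (limma adjusted p = 0.454).

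**Figure D3:**
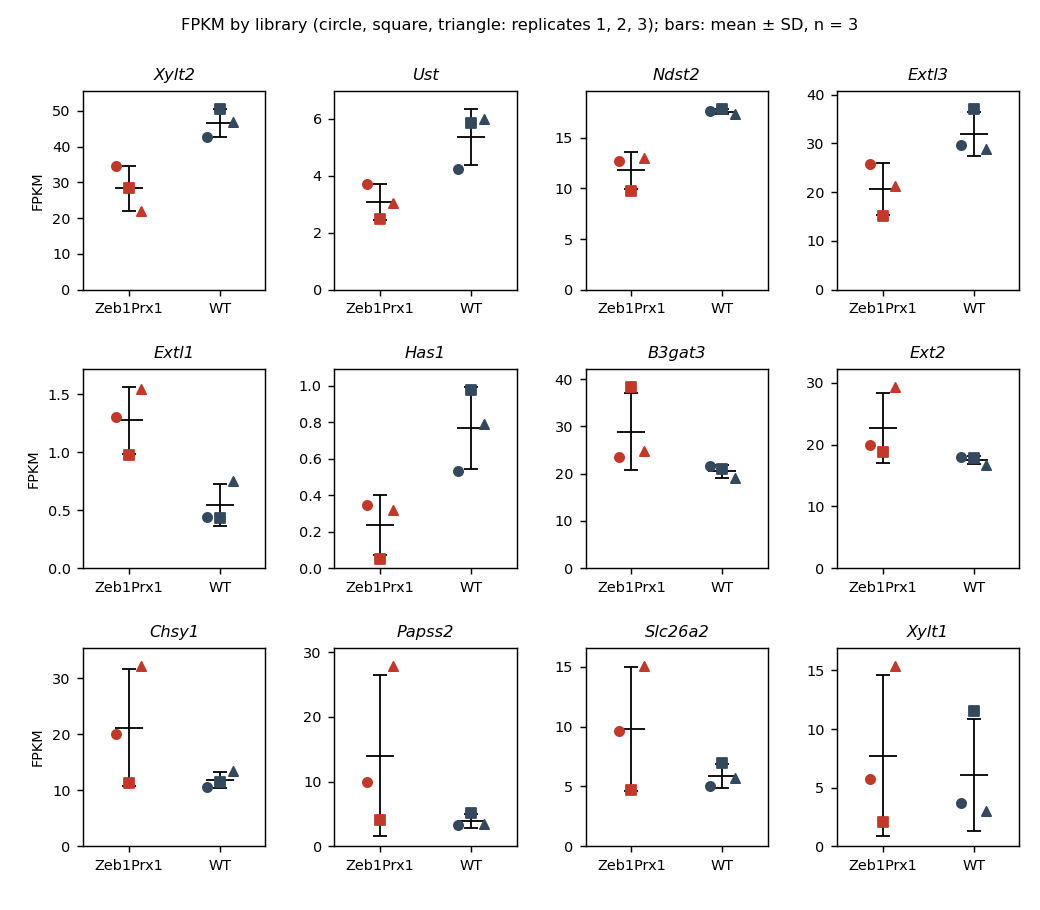
FPKM of 12 genes in each library, each panel with its own linear axis from 0. Symbols are replicates, the long dash is the mean and the bar the SD of n = 3, with Zeb1Prx1 on the left and WT on the right of each panel. Xylt2, Ust, Ndst2, Extl3 and Has1 are lower in each Zeb1Prx1 library, Extl1, B3gat3 and Ext2 higher, and Chsy1, Papss2, Slc26a2 and Xylt1 have their highest value in Zeb1Prx1 replicate 3.

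Sulfation of heparan starts with the N-deacetylase/N-sulfotransferases Ndst1 and Ndst2. Ndst2 (ENSMUSG00000039308, mm10 chr14:20723730-20734562) had 12.7, 9.70 and 13.02 FPKM in Zeb1Prx1 replicates against 17.6, 17.8 and 17.3 FPKM in WT replicates. The WT values were almost equal and all above the Zeb1Prx1 values. The means were 11.8 ± 1.82 FPKM in Zeb1Prx1 and 17.6 ± 0.254 FPKM in WT (SD, n = 3 each), 0.671-fold, with a log2 change of -0.55 (SE 0.15; limma adjusted p = 0.273). Heparin in mast cells depends on Ndst2 in mice.

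Ndst1, the main enzyme of this kind in most mouse tissues, had 17.5, 4.94 and 17.5 FPKM in Zeb1Prx1 replicates against 13.9, 18.7 and 14.3 FPKM in WT replicates. Zeb1Prx1 replicate 2 alone was outside the range of the others, and the log2 change of -0.38 (SE 0.44) was 0.16 without it. Ndst2 made up 42.1%, 66.2% and 42.6% of the summed FPKM of both in Zeb1Prx1 replicates, against 55.8%, 48.8% and 54.8% in WT replicates. The share of Ndst2 overlapped between genotypes although its level did not.

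The epimerase Glce and the sulfotransferases Hs2st1, Hs6st1, Hs6st2 and Hs3st1 overlapped between genotypes, with log2 changes from -0.38 for Hs6st1 to 0.25 for Hs6st2. Hs6st2 had 13.99, 9.84 and 8.55 FPKM in Zeb1Prx1 replicates against 8.44, 4.40 and 17.1 FPKM in WT replicates, and so varied more within WT. Its fold of means was 1.08, and 1.68 without WT replicate 3. Of the 7 genes that sulfate or epimerise heparan, 5 had a difference below 0. Their median was -0.086, 0.029 without Zeb1Prx1 replicate 2 and 0.033 without WT replicate 1.

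Sulf1 and Sulf2 are secreted sulfatases that remove sulfate from finished heparan chains and so alter its binding of growth factors. Sulf1 had 17.8, 10.7 and 32.9 FPKM in Zeb1Prx1 replicates against 14.6, 31.3 and 8.99 FPKM in WT replicates, with a wide spread within each genotype. The fold of means was 1.12, and 1.74 without WT replicate 2. Sulf2 had 30.9, 18.01 and 25.95 FPKM in Zeb1Prx1 replicates against 20.3, 22.2 and 30.4 FPKM in WT replicates, so that both genes overlapped.

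Of the hyaluronan synthases, Has2 was the one expressed above 1 FPKM, at 9.02, 5.49 and 4.56 FPKM in Zeb1Prx1 replicates against 6.15, 4.80 and 5.81 FPKM in WT replicates. The genotypes overlapped, with a log2 change of 0.12 (SE 0.24). Has1 was low and lay lower in each Zeb1Prx1 library, with 25, 4 and 22 fragments in Zeb1Prx1 replicates against 44, 68 and 55 in WT replicates (0.237 ± 0.164 FPKM in Zeb1Prx1 and 0.768 ± 0.224 FPKM in WT, SD, n = 3 each, 0.309-fold). Tested without a filter, its log2 change of -0.52 (SE 0.15) did not pass (limma adjusted p = 0.449). Has3 had 10, 10 and 14 fragments in Zeb1Prx1 replicates against 11, 13 and 29 in WT replicates, with overlap.

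The genes that supply sulfate and UDP-glucuronate had a median difference of 0.40 (0.24 after rescaling to equal FPKM sums, and 0.15 without Zeb1Prx1 replicate 3). All 4 had a difference above 0, except that Ugdh was at -0.10 after that rescaling, and 0 were called. Papss2 makes PAPS in cartilage, and its loss causes a skeletal dysplasia in humans and mice. It (ENSMUSG00000024899, mm10 chr19:32620005-32667187) had 9.96, 4.08 and 27.9 FPKM in Zeb1Prx1 replicates against 3.31, 5.13 and 3.37 FPKM in WT replicates. Zeb1Prx1 replicates 1 and 3 were above all WT values, and replicate 2 was within their range.

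The means of Papss2 were 13.98 ± 12.4 FPKM in Zeb1Prx1 and 3.94 ± 1.04 FPKM in WT (SD, n = 3 each), 3.55-fold, or 1.78-fold without Zeb1Prx1 replicate 3. The log2 change was 1.27 (SE 0.58, 95% interval -0.099 to 2.63; limma adjusted p = 0.348). Without Zeb1Prx1 replicate 2 it was 1.87 (limma adjusted p = 0.302), and with library weights 2.15, which passed (limma adjusted p = 0.0498). Papss1, its more widely expressed paralogue, had 17.5, 19.3 and 25.6 FPKM in Zeb1Prx1 replicates against 17.2, 18.1 and 16.2 FPKM in WT replicates (log2 change 0.25, SE 0.17). Papss2 made up 36.2%, 17.4% and 52.1% of the summed FPKM of both in Zeb1Prx1 replicates, against 16.1%, 22.1% and 17.2% in WT replicates.

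Slc26a2, the sulfate transporter whose mutation causes diastrophic dysplasia in humans, had 9.67, 4.74 and 15.1 FPKM in Zeb1Prx1 replicates against 5.004, 6.99 and 5.67 FPKM in WT replicates. The order of the Zeb1Prx1 libraries was that of Papss2, with replicate 2 below all WT values (log2 change 0.54, SE 0.36; limma adjusted p = 0.462). Ugdh, which makes UDP-glucuronate, had 15.8, 18.9 and 26.6 FPKM in Zeb1Prx1 replicates against 19.6, 23.3 and 15.4 FPKM in WT replicates, with overlap. The summed chondrocyte markers had the same order among Zeb1Prx1 libraries as Papss2 and Slc26a2, replicate 3 highest and replicate 2 lowest. So did the summed stromal markers, at 5534, 3323 and 6087 FPKM in Zeb1Prx1 replicates 1, 2 and 3. That order was common in the set, with 20 of the 42 genes (47.6%), against 16.9% of all tested genes. The order was taken from Papss2 and Slc26a2, which count among the 20. The 42 include 5 genes below the filter, which the share over all tested genes does not. All 15 chondrocyte markers had a difference above 0, and 8 of them did not overlap between genotypes, against 24.4% of all tested genes, although 7 of the 15 reached 1 FPKM in at least 3 libraries. The part of chondrocyte or stromal content in these levels was not tested. In bulk libraries, more cells of a type and more RNA per cell cannot be told apart.

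The highest and lowest values of these genes were spread unevenly over the libraries. Zeb1Prx1 replicate 3 held the highest of the 6 values for 17 of the 42 (40.5%), against 16% of all tested genes, and Zeb1Prx1 replicate 2 the lowest for 15 (35.7%), against 27.9%. Zeb1Prx1 replicate 1 held the highest for 8 (19%), against 8.35%, and the lowest for 0 (0%), against 8.66%. WT replicate 3 held the lowest value for 14 (33.3%), against 16.8%. Zeb1Prx1 replicate 2 held the highest value for 3 (7.14%), against 32.2%. Of the 42, 21 (50%) had at least 5000 bases, against 37.7% of all tested genes. Zeb1Prx1 replicate 2 also had the highest macrophage sum (22906 FPKM), and replicate 3 the highest stromal and chondrocyte sums (6087 and 2728 FPKM). WT replicate 3 held neither extreme of any of these sums. The part of length or of cell content in these shares was not tested.

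**Figure D4:**
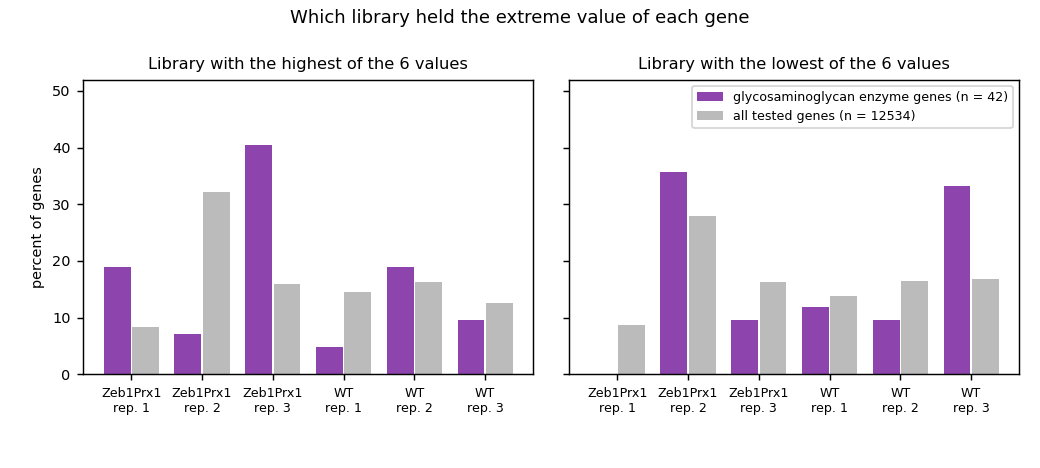
Share of genes whose highest (left) or lowest (right) of 6 values fell in each library, in percent, for the 42 glycosaminoglycan enzyme genes (purple) and all 12534 tested genes (grey). The purple bars exceed the grey ones for the highest value in Zeb1Prx1 replicates 3 (40.5%) and 1 (19%), and for the lowest in Zeb1Prx1 replicate 2 (35.7%) and WT replicate 3 (33.3%); Zeb1Prx1 replicate 1 holds the lowest value of none.

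Without Zeb1Prx1 replicate 2, more of the set reached an unadjusted p under 0.05. Chsy1, Chsy3, Dse, Slc26a2 and Papss2 were then the 5 of 37 on the higher side (13.5%), against 7.35% of all tested genes. Xylt2, Chst7, Ust, Extl3 and Ndst2 were the 5 on the lower side (13.5%), against 6.75%. The genotypes then did not overlap for 15 of the 37 (40.5%), against 34.4%. By limma, 0 of the 37 were called with adjustment over all genes, where 1 gene (0.00813%) was, and the smallest adjusted p among the 37 was 0.302.

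Genes around this pathway were counted from 5 further lists, and 0 of their tested genes passed over all genes by limma. Of 18 genes for the supply and transport of sugar nucleotides and PAPS, 14 had a difference above 0, and 3 of the 16 tested were higher and 0 lower at an unadjusted p under 0.05. Over all tested genes 51.9% were above 0, and 8.15% were higher and 6.98% lower at that p. Ugp2, which makes UDP-glucose, had 36.9, 52.3 and 52.2 FPKM in Zeb1Prx1 replicates against 35.9, 32.3 and 28.7 FPKM in WT replicates (log2 change 0.52; limma adjusted p = 0.302). Each Zeb1Prx1 value of Ugp2 was above each WT value.

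Of 17 genes for glycosaminoglycan breakdown, 4 had a difference above 0 and 12 below, where 51.9% of all tested genes were above 0. By limma, 2 of the 16 tested were lower at an unadjusted p under 0.05, Sgsh among them, against 6.98% of all tested genes. Sgsh, a lysosomal enzyme of heparan breakdown, had 12.1 ± 2.95 FPKM in Zeb1Prx1 and 17.02 ± 2.06 FPKM in WT (SD, n = 3 each; limma adjusted p = 0.326). Macrophages are rich in lysosomal enzymes. Of the 15 macrophage markers, 3 had a difference above 0, against 51.9% of all tested genes. The genotypes did not overlap for 5 of the 15, against 24.4% of all tested genes. The summed macrophage markers, given above, overlapped between genotypes, with their highest value in Zeb1Prx1 replicate 2 and their lowest in Zeb1Prx1 replicate 1. Their part in the values of the breakdown genes was not tested.

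Among 10 genes for core proteins or carriers of chondroitin and dermatan, 1 of the 8 tested was higher at an unadjusted p under 0.05. Over all tested genes 8.15% were. This gene was aggrecan (Acan), with 21.8, 1.28 and 121 FPKM in Zeb1Prx1 replicates against 0, 0.906 and 0.06103 FPKM in WT replicates (limma adjusted p = 0.290). Acan met the filter only through its Zeb1Prx1 libraries, each WT value being below 1 FPKM, so its count as higher leans on the filter. Bcan (brevican) was low, at 1.55 ± 0.372 FPKM in Zeb1Prx1 and 0.810 ± 0.397 FPKM in WT. Of 14 genes for heparan-carrying core proteins, 2 of the 11 tested were higher and 1 lower at that p, against 8.15% and 6.98% of all tested genes. Sdc1 (syndecan) had 67.2, 53.2 and 76.3 FPKM in Zeb1Prx1 replicates against 39.8, 48.6 and 29.7 FPKM in WT replicates (limma adjusted p = 0.278), and Col18a1 had 6.09 ± 0.656 FPKM in Zeb1Prx1 and 10.505 ± 1.71 FPKM in WT (limma adjusted p = 0.264; SD, n = 3 each). Of 20 further chain enzymes, 4 were tested and 0 reached that p; the keratan sulfotransferases Chst1 and Chst2 had the smallest (limma adjusted p = 0.333 and 0.778).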

How the data were processed

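Total RNA was sequenced as paired reads, per the labels' protocols. The deposited table holds FPKM per gene and library as the authors computed them, with gene names, coordinates and lengths. Reads were placed on mm10, per the submitters' processing notes; the aligner, counter and strand setting were not given in the sources used here. Dividing FPKM times gene length by the value of a single fragment in that library gave whole numbers for 127408 of 127408 values above 0 (relative tolerance 1e-06), used as fragment counts. Counts and their limit of 3 fragments at 0 cover counting error only. Exons of 10 of the 42 genes overlap another gene in GENCODE M21, by at most 8.07% outside Chpf2 and Chst15, and table lengths equal that annotation's for 38.

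The test was limma 3.58.1 (R 4.3.3) with intensity trend on log2(FPKM + 1), Zeb1Prx1 against WT without block, Benjamini-Hochberg adjustment over 12534 genes with at least 1 FPKM in at least 3 libraries, threshold 0.05. This scale understates changes of low genes. The test was also run on simulated normal values with the same spread for every gene and library. Unlike these data, they held no library that stands apart, so they do not show how the test behaves here. All 42 genes are named, and given by library where genotypes did not overlap, the difference was at least 0.5, or the gene had the highest mean of its step. Of pathway lists, the 2 tested genes with the smallest p are named, except some that are not reported here. Genes, lists and alternatives were chosen with earlier results of these data known. Python 3.11.15 drew counts, sequences and figures.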

Additional observations from a re-analysis of the deposited data

How the results depend on the processing

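Across the alternatives, 0 glycosaminoglycan genes passed, except with library weights, where 2 did (Xylt2 and Papss2) among 447 genes called in all, with 10 of 37 in the set higher (27%, against 16.1% of all tested genes) and 5 lower (13.5%, against 14.8%) at an unadjusted p under 0.05. Without a filter 1 was higher at that p. When each library was left out in turn, the genes called in all ranged from 0 to 1 and the set's genes higher at that p from 0 to 5; these counts for the set were added after seeing the data. Genes lower at that p numbered 3 to 5 under every alternative. The replicate block, with the replicate number as a factor, called 0 genes and 0 of the set, with 3 lower at that p. The labels do not say that replicate numbers pair the libraries. Deviations from the genotype mean correlated at 0.029, -0.41 and 0.080 for same-numbered libraries. For differently numbered libraries they correlated from -0.48 to 0.46. Deviations within 3 libraries are not independent, so these values cannot settle pairing. Of the 42, 17 did not overlap without Zeb1Prx1 replicate 2 and 10 did not with all libraries. Of the 37 tested these were 15 (40.5%) and 8 (21.6%), against 34.4% and 24.4% of all tested genes. With equal FPKM sums 8 of the 42 did not overlap, and 7 of the 37 tested (18.9%), against 24.2% of all tested genes. Chpf, Ext2 and Extl1 then overlapped and Hs6st1 did not.

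Of 572 single-gene values under alternatives, 519 counted as the same. For the 37 tested genes this means that direction and side of the threshold were kept. For the 5 genes below the filter it means a move smaller than the SD within genotypes, whatever its direction. With a pseudocount of 0.1 the low genes moved, to -1.49 for Has1, 1.11 for Extl1, -0.37 for Chst13 and -0.33 for Has3. With equal FPKM sums the sign reversed for B4galt7 (-0.11), Csgalnact2 (-0.024), Chst14 (-0.023), Sulf2 (-0.14), Has2 (-0.023) and Ugdh (-0.10), with library weights for Chst11 (0.58), Chst15 (-0.049), Dsel (0.22), Ndst1 (0.052), Hs2st1 (0.16) and Has2 (-0.062), and by voom for B4galt7 (-0.0035) and Sulf2 (-0.030). With a library left out, the sign reversed within these ranges of log2 change: Xylt1 (-0.44 to 0.77), B4galt7 (-0.099 to 0.19), Csgalnact1 (-0.26 to 0.45), Csgalnact2 (-0.016 to 0.22), Chpf2 (-0.53 to 0.037), Chst11 (-0.40 to 0.42), Chst15 (-0.028 to 0.26), Dsel (-0.21 to 0.22), Ndst1 (-0.66 to 0.16), Glce (-0.18 to 0.095), Hs2st1 (-0.24 to 0.033), Hs6st2 (-0.18 to 0.70), Hs3st1 (-0.33 to 0.24), Sulf1 (-0.21 to 0.65), Sulf2 (-0.14 to 0.23), Has2 (-0.13 to 0.30) and Ugdh (-0.14 to 0.22). The cause was not tested. None of these genes passed. Counts were low for Chst3, Chst13, Has1 and Has3, at most 110 fragments in any library. The fold of mean FPKM of Chst3 was 0.556 with all libraries and 1.14 without WT replicate 2. That of Chst13 was 0.484 with all libraries and 1.03 without WT replicate 1.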
